A study of Mus musculus with 2 samples.

Results

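The genes described here encode the subunits of heterotrimeric G proteins and the regulators of G protein signalling (RGS proteins), measured in mouse platelets. They were taken by gene symbol, as every alpha, beta and gamma subunit gene and every numbered Rgs gene that was the only symbol on its probe sets in the array annotation. This gave 49 genes with 117 probe sets, out of 18193 genes with such probe sets on the array. The pattern does not take in Gnao1, and 3 probe sets that carry 2 symbols, 1 of which fits the pattern, were left out.

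Washed platelets of C57BL/6 mice were compared between Smad4 f/f mice, whose Smad4 gene carries loxP sites and which served as controls, and Smad4 -/- mice, in which Cre recombinase under the PF4 promoter deletes the floxed gene in megakaryocytes and platelets. Both genotypes carry the loxP sites, other tissues keep Smad4, and the labels do not say whether the controls carried Cre. Total RNA was amplified from its 3' end, labelled with biotin and hybridised to Affymetrix mouse expression arrays. Each genotype has 6 mice and 1 array, and the labels do not say if the mice were pooled. There is thus no replicate check and no test, and all differences are between 2 single arrays.

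A heterotrimeric G protein carries the signal of a seven-helix receptor into the cell. The activated receptor makes the alpha subunit exchange GDP for GTP, and the alpha subunit and the beta-gamma pair then act on separate effectors. RGS proteins speed up the hydrolysis of GTP by alpha subunits and so end the signal. In platelets, thrombin and thromboxane receptors act through Gq and G13, the ADP receptor P2Y12 through Gi, and the prostacyclin receptor through Gs, which raises cyclic AMP and holds platelets at rest.

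The data hold 1 log2 signal for each probe set on each array. A signal floor was set at the 60th percentile of the array, a linear signal of 145, and the probe set with the highest mean signal stood for its gene. A gene was called measured where that probe set reached the floor on at least 1 array, and all ratios divide Smad4 -/- by Smad4 f/f after signals under the floor were raised to it. Where 1 array lay below the floor the ratio is a lower bound on the size of the difference. A probe set's signal depends on its probes as well as on the RNA, so the levels of different genes were not set against each other.

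For Smad4 itself Smad4 f/f gave a signal of 949 and Smad4 -/- one of 894 (log2 ratio -0.09), with -0.12 and -0.13 from its other probe sets. Probe sets outside the deleted part of a gene check nothing, and where these 3 lie in Smad4 was not analysed here, so each array's genotype rests on its label. All 11 platelet markers found on the array were measured, Pf4 and Itga2b among them, with a median log2 ratio of 0.04. Among the erythroid markers 6 of 8 measured genes passed 2-fold upwards in Smad4 -/-, and the summed linear signal of the 11 found on the array was 10782 against 29004, with Hba-a1, Rhag and, by the probe set used, Epb42 below the floor. Cd3e, Cd3g, Cd5 and Cd4 of the T and NK cell markers, Pax5 of the B cell markers, Elane, Mpo and Camp of the neutrophil markers and Cd14 and Ccr2 of the monocyte markers lay below the floor on both arrays. The rest were measured, 5 of 9 T and NK cell, 7 of 8 B cell, 5 of 8 neutrophil and 7 of 9 monocyte markers. Well above the floor on both arrays were Nkg7 (1160 and 1180), Ms4a1 (1867 and 1848), S100a8 (3178 and 3733) and Ctss (1498 and 2665). The summed linear signals of the T and NK cell (2072 against 2322), B cell (4595 against 5136) and neutrophil lists (6125 against 7703) differed less, although Cr2 of the B cell list was 2.33-fold higher. The monocyte sum (142319 against 135347) was almost all Lyz2, and its other 8 genes summed to 2596 against 4088, 1.57-fold higher in Smad4 -/-. Csf1r was 3.11-fold higher by the probe set used, with 2 of its 3 probe sets lower, and 4 of the 7 measured monocyte markers passed 1.5-fold, 3 of them higher. Gapdh control probes at the 3' end were 1.86 times as bright as those at the 5' end in Smad4 f/f and 2.61 times in Smad4 -/-, and the same ratio for beta-actin was 1.16 and 1.27. The part of these differences in the ratios below was not tested.

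Of the 49 genes, 39 were measured, and 1 of them passed 2-fold. Rgs19 was 2.12-fold lower in Smad4 -/-, and no G protein subunit gene passed 2-fold in either direction. Over all 11089 measured genes 7.00% passed 2-fold, 3.42% higher and 3.58% lower, against 2.56% of the 39. The counts behind the shares were 379 and 397 genes, or 479 and 315 with median centring of the arrays. The median log2 ratio was -0.02 for the 39 genes and -0.02 for all measured genes, and both became 0.06 with that centring. Of the 39 ratios, 18 were above 0 and 21 below, against 5356 and 5733 over all measured genes. A smaller difference of 1.5-fold was passed by 8 genes (20.5%, against 25.1% of all measured genes). Gnb4, Gng3, Rgs6 and Rgs8 were the 4 higher ones, against 11.8% of all genes, and Rgs3, Rgs9, Rgs12 and Rgs19 the 4 lower ones, against 13.3%. None of the 39 passed 3-fold, whereas 0.929% of all measured genes did, 0.514% higher and 0.415% lower. In RNA of whole platelets, fewer cells carrying a transcript and less of it per cell cannot be told apart.

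**Figure D1:**
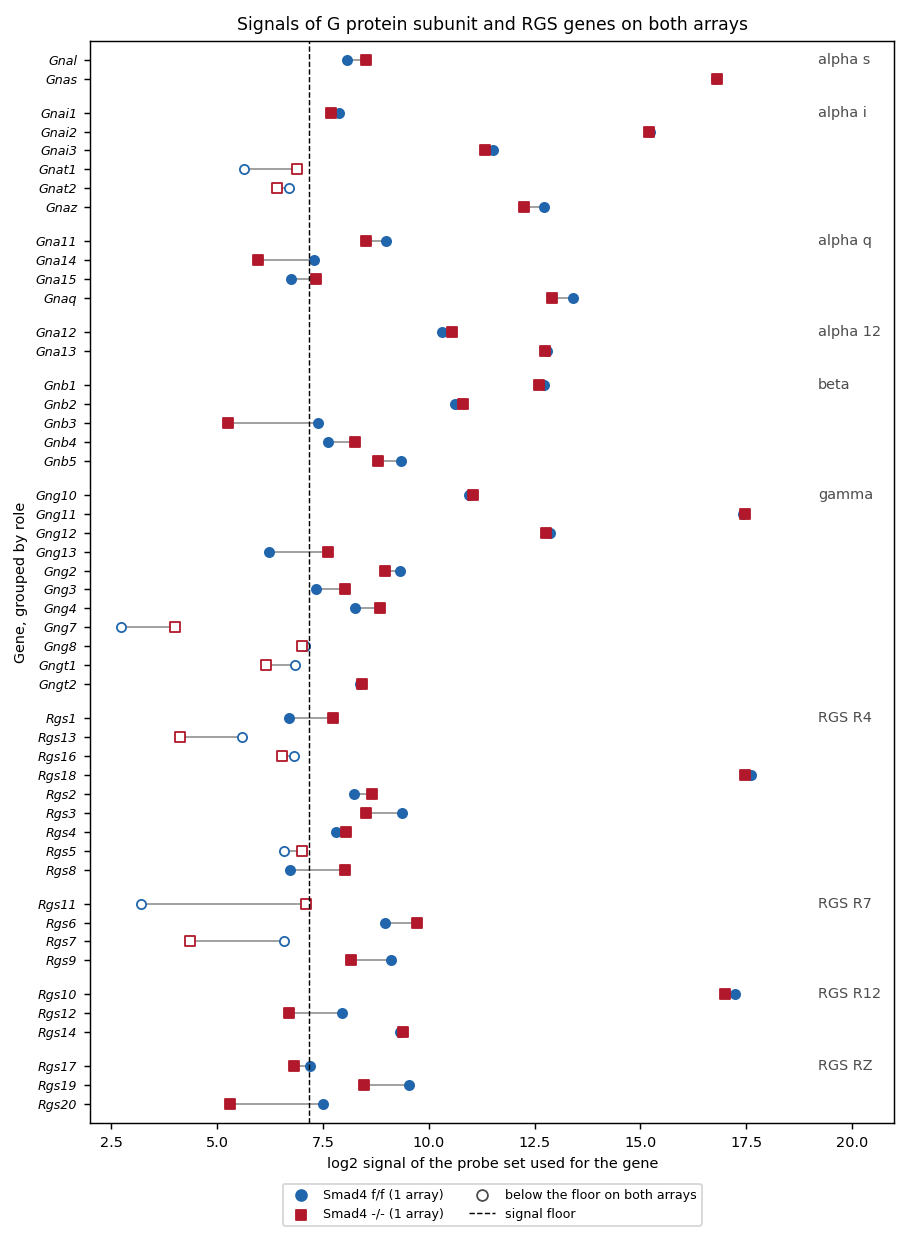
log2 signals of all 49 genes on the Smad4 f/f array (circles) and the Smad4 -/- array (squares), grouped by role, each from the 1 probe set used for the gene. Open symbols are the 10 genes below the floor (dashed line) on both arrays, and the pairs at the far right, Gnas, Gng11, Rgs18 and Rgs10, lie close together.

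The genes with the strongest signals had small ratios, as had other genes at that level. For Gnas, Gng11, Rgs10 and Rgs18 both arrays lay above the 99th percentile of signal, and their log2 ratios ran from -0.22 to 0.04. Across the 222 genes at that level the median size of the log2 ratio was 0.11, against 0.33 over all measured genes, and 0 of the 222 passed 2-fold. Whether signals so near the top of the array's range follow the amount of RNA in proportion was not tested. At or above the 75th percentile on both arrays stood 26 of the 39 genes, with a median size of 0.24 against 0.27 for the 5422 genes of that level. Where a gene has several probe sets, their disagreement gives a technical yardstick. Their pooled SD was 0.48 on the log2 ratio over 4252 genes, and 26 of the 39 genes (66.7%) lay within that distance of 0, as did 65.9% of all measured genes. Among the 26, Gna14, Gna15, Gnb3, Gng13, Rgs17 and Rgs20 have bounds only, since 1 array lay below the floor. With no floor their log2 ratios ran from -2.19 (Rgs20) to 1.39 (Gng13). Such bounds also stand among all measured genes (3213 of 11089), and the SD itself was taken on floored signals. This yardstick holds no spread between mice or arrays.

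**Figure D2:**
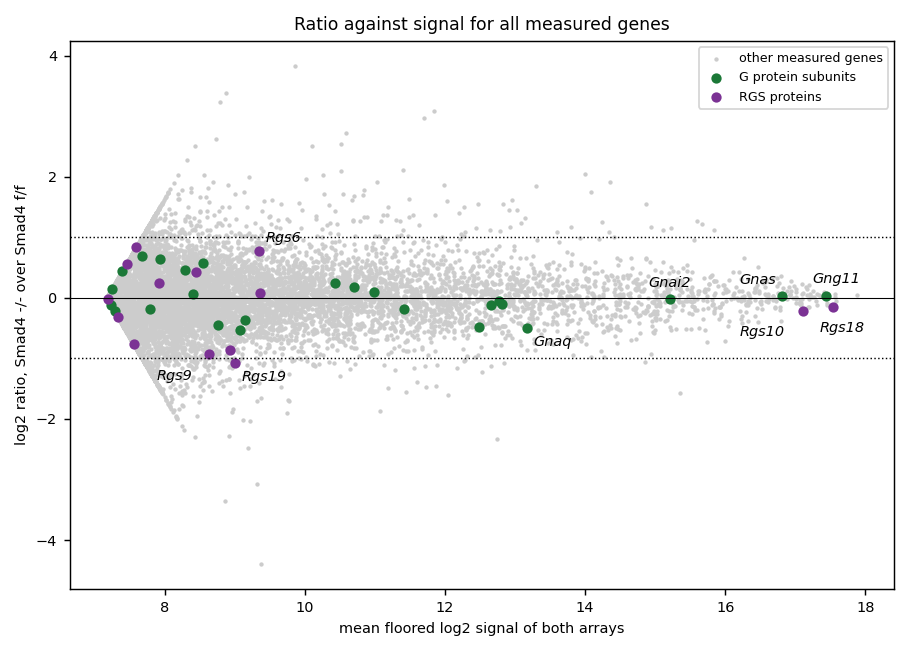
log2 ratio of Smad4 -/- over Smad4 f/f against mean floored log2 signal for all measured genes (grey), with the G protein subunit genes in green and the RGS genes in purple; dotted lines mark 2-fold. Of the coloured points only Rgs19 lies past a dotted line, and the 4 at the right end sit near 0.

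Gnas encodes Gs alpha, the subunit that turns on adenylyl cyclase. It read 113121 on the Smad4 f/f array and 115716 on that of Smad4 -/-, with a log2 ratio of 0.03. A second Gnas probe set read 30.1 and 202 and so passed the floor in Smad4 -/- only, and the other 3 did not reach it. The Gnas locus makes several transcripts, and which of them each probe set reads was not analysed here. Gnal, the Gs family member of olfactory neurons, read 268 and 368 (log2 ratio 0.46), while its other measured probe set (146 and 113) lay below the floor in Smad4 -/- and gave a bound of -0.01.

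The Gi family lowers cyclic AMP and frees beta-gamma pairs, and its 4 measured genes had ratios below 0 by the probe set used, except that Gnai2 turned to 0.07 with median centring. Gnai2, the Gi alpha of blood cells that serves P2Y12 in platelets, read 38041 and 37546, a log2 ratio of -0.02, whereas its second probe set read 15440.1 and 21984 (0.51). Gnai3 read 2920.4 and 2557 (-0.19) with the other probe set at 0.23, and Gnai1 read 237 and 207 (-0.19) with bounds of -0.52 (208 and 34.98) and 0.33 (130 and 183) from the others, each below the floor on 1 array. For these 3 genes the probe sets went both ways.

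Gnaz stood apart from them in this respect. It encodes Gz alpha, an alpha subunit of platelets and neurons that also inhibits adenylyl cyclase. One probe set read 6774 on the Smad4 f/f array and 4857 on that of Smad4 -/- (log2 ratio -0.48, 1.39-fold lower), and the other read 4971 and 3764 (-0.40). Both lay below 0 by a similar amount, short of 2-fold. The transducin genes Gnat1 and Gnat2, known from photoreceptors, were below the floor on both arrays.

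Gq alpha activates phospholipase C beta, the route to calcium release after thrombin, thromboxane or ADP. Gnaq read 10912 on the Smad4 f/f array and 7732 on that of Smad4 -/-, with a log2 ratio of -0.50 or 1.41-fold lower. All 6 measured Gnaq probe sets were lower in Smad4 -/- as the authors scaled the arrays, and 4 of the 6 with median centring. Their log2 ratios were -0.50, -0.41, -0.27, -0.17, -0.08 and -0.07, so the size of the difference varied by probe set and its mean was -0.25. The close relative Gna11 read 506 and 370 (-0.45), with a bound of 0.24 (106 and 171) from its second probe set. Gna14 (157 and 62.8) and Gna15 (108 and 161), the other Gq family genes, crossed the floor on 1 array each, with bounds of -0.11 and 0.15.

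G12 and G13 alpha form a family of their own, and G13 binds integrin tails during platelet spreading. Gna13 read 7092 on the Smad4 f/f array and 6843 on that of Smad4 -/-, with a log2 ratio of -0.05. Its 7 probe sets were all measured and ran from -0.66 to 0.68, with 5 below 0 and a mean of -0.05. That is the widest disagreement among the alpha subunit genes. Gna12 read 1264 and 1499 (0.25) by the 1 measured probe set of 5.

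Beta subunits form a tight pair with gamma subunits and the pair anchors alpha at the membrane. Gnb1 read 6734 and 6229 (log2 ratio -0.11), with 0.01 from a second probe set, and Gnb2 read 1569 and 1784 (0.19). Gnb5, the divergent beta subunit that pairs with R7 RGS proteins in place of a gamma subunit, read 648 and 448 (-0.53, 1.45-fold lower). Gnb4 gave opposite readings, 196 against 305 (0.63) by one probe set and 207 against 122.7 (-0.51) by the other, and the mean of its measured probe sets was 0.06. Gnb3 reached the floor in Smad4 f/f only (168 against 38.2). Of the 5 beta subunit genes, 2 had ratios above 0 and 3 below.

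Gamma subunits carry the lipid anchor of the pair. Gng11 read 175918 on the Smad4 f/f array and 180379 on that of Smad4 -/-, with a log2 ratio of 0.04. Gng10 read 1969 and 2106 (0.10), and Gng12 read 7496 and 6976 (-0.10), with 0.53 from a weaker probe set. Gng2 read 642 and 499.7 (-0.36), and 159 and 151 (-0.08) by a second probe set, which turned above 0 with median centring.

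The remaining measured gamma subunit genes had weak signals. Gng4 read 308 and 458 (log2 ratio 0.57), and its second measured probe set, 20.0 against 265, gave a bound of 0.87. Gng3 read 161 and 262 (0.70), and Gng13 crossed the floor in Smad4 -/- only (74.97 against 196). Gngt2, a cone transducin subunit, read 330.2 and 346 (0.07). With the floor at the 75th percentile the ratio of Gng3 became 0.01. Gng7, Gng8 and Gngt1 were below the floor on both arrays. Over the 8 measured gamma subunit genes the median was 0.08, with 6 above 0, and Gng13 is among the 6 only through the array on which it is high.

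**Figure D3:**
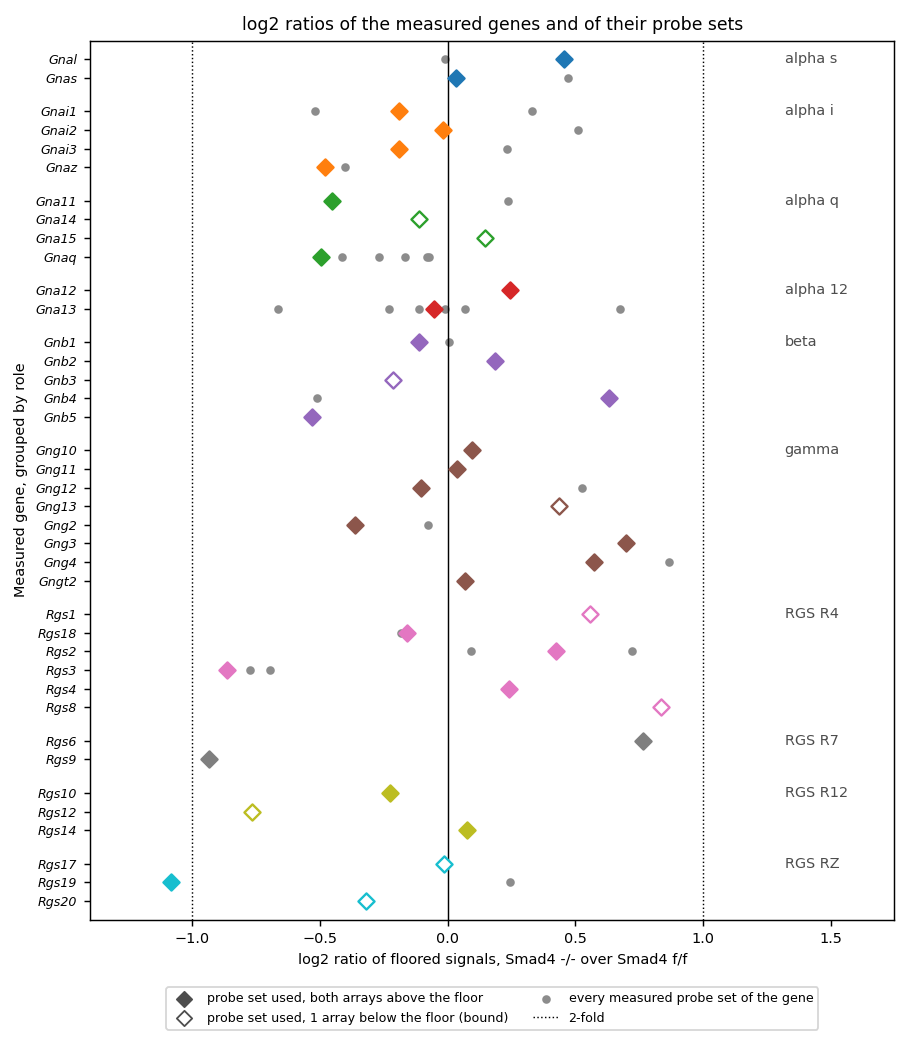
log2 ratios of the 39 measured genes (diamonds, open where 1 array was below the floor) and of every measured probe set (grey points), grouped by role; dotted lines mark 2-fold. The RGS diamonds spread more widely than those of the subunits, and the probe sets of Rgs3, Gnaz, Rgs18 and, as the authors scaled the arrays, Gnaq lie on the lower side of 0 while those of Rgs19 and Gnb4 fall on both sides.

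The ratios of the RGS genes spread more widely than those of the subunits. The median size of the log2 ratio was 0.49 over 14 measured RGS genes and 0.19 over 25 subunit genes, against 0.33 over all measured genes. Values of Rgs1, Rgs8, Rgs12, Rgs17 and Rgs20 are bounds, as are those of Gna14, Gna15, Gnb3 and Gng13 among the subunits. Signal also differed between these groups, since 8 of the 14 RGS genes and 18 of the 25 subunit genes reached the 75th percentile on both arrays.

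The R4 subfamily holds small RGS proteins that act on Gi and Gq alpha. Rgs18, the R4 member of megakaryocytes and platelets, read 201466 on the Smad4 f/f array and 180372 on that of Smad4 -/- by one probe set and 184585 and 162559 by the other. The log2 ratios were -0.16 and -0.18, so both probe sets were slightly lower by nearly the same amount. Rgs3 read 662 and 364 (-0.86, 1.82-fold lower) by its strongest probe set. Its other measured probe sets read 235 against 31.9 and 248 against 22.8, bounds of -0.69 and -0.77, so all 3 were lower and Smad4 -/- lay below the floor in 2 of them.

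Rgs2, which acts on Gq alpha, went the other way. It read 302 and 405 (log2 ratio 0.43) by the probe set used, 213 and 352 (0.72) by another, and 94.2 and 155 by one that reached the floor in Smad4 -/- only. Rgs1, known from lymphocytes, and Rgs8, known from brain, were each read by 1 probe set that crossed the floor in Smad4 -/- only, at 104 against 214 (bound 0.56) and 106 against 259 (bound 0.84). With the floor at the 50th percentile both passed 2-fold, as did 671 of all 13146 measured genes upwards. Rgs4 read 223 and 264 (0.24). Rgs5, Rgs13 and Rgs16 were below the floor on both arrays.

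R7 proteins pair with Gnb5 and are known mainly from neurons and the retina. Rgs9 read 551 on the Smad4 f/f array and 288 on that of Smad4 -/- (log2 ratio -0.93, 1.91-fold lower), and Rgs6 read 499.7 and 850.2 (0.77, 1.70-fold higher). Each rests on 1 measured probe set and they point in opposite directions. Rgs7 and Rgs11 were below the floor on both arrays.

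In the R12 subfamily, Rgs10, which acts on Gi alpha and is known from platelets and microglia, read 153110 on the Smad4 f/f array and 131015 on that of Smad4 -/-, with a log2 ratio of -0.22 from its only probe set. Rgs14 read 640 and 675 (0.08). Rgs12 read 247 against 104, below the floor in Smad4 -/-, which bounds the ratio at -0.77.

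The RZ subfamily acts on Gz and Gi alpha. Its member Rgs19, also called GAIP, read 746 on the Smad4 f/f array and 353 on that of Smad4 -/- by the probe set used, a log2 ratio of -1.08. The second Rgs19 probe set, of a type that can also bind other transcripts, read 309 and 366 (0.25). The mean of both was -0.42, so the 2-fold difference rests on 1 of 2 disagreeing probe sets, and the gene fell just short of 2-fold with median centring (-0.99) or a pseudocount of 50 in place of the floor (-0.98). Rgs17 (146 and 113) and Rgs20 (181 and 39.8) crossed the floor in Smad4 f/f only, with bounds of -0.01 and -0.32. Of the 3 measured RZ genes only Rgs19 lay above the floor on both arrays.

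Over all 39 genes, 69 probe sets were measured, of which 1 passed 2-fold (1.45%, against 6.85% of the 18099 measured probe sets with 1 gene symbol). Of 18 genes with 2 or more measured probe sets, Gnas, Gng4 and Rgs2 were higher in Smad4 -/- by every one, and Gnaq, Gnaz, Gng2, Rgs18 and Rgs3 lower. With median centring Gnaq and Gng2 left these genes and Gnai2 joined the higher ones. Gnas left them with the floor set at the 50th percentile, where Rgs4, Rgs9, Gngt1 and Rgs16 joined, and Gnas, Gng2 and Rgs3 left them at the 75th. These 8 are 44.4% of the 18 genes, and over all 4252 such genes on the array the share was 47.6%. The remaining 10, Gnai2, Gna13 and Rgs19 among them, had probe sets on both sides of 0.

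Smad4 binds DNA with SMAD partners at short elements, the SMAD box CAGAC, its palindrome GTCTAGAC and the GC-rich motif GGCGCC. The 250 bases before each RefSeq gene start (build GRCm38.p6) were searched for these letters on both strands, with 36 of the 49 genes found in the promoter table at 49 windows. CAGAC stood in 38.8% of these windows and in 42.2% of all 32851, GGCGCC in 16.3% and 9.59%, and GTCTAGAC in 0 of 49 and in 0.167%. The lineage motifs AGATAA, bound by GATA factors, and CCGGAAGT, bound by ETS factors, stood in 10.2% and 2.04% of the windows of these genes and in 9.99% and 2.88% of all. A match is only a run of letters. The windows printed here are those of the gene past 2-fold (Rgs19) and of 3 genes all of whose measured probe sets lay on one side of 0 (Rgs3 and, as scaled by the authors, Gnaq lower, Rgs2 higher), each at the outermost start in the table, with CAGAC and GGCGCC of either strand in capitals. The RefSeq span of Rgs19 reaches upstream past its printed window, so another start may lie outside the table.
Rgs19, chr2:181693978-181694227, minus strand: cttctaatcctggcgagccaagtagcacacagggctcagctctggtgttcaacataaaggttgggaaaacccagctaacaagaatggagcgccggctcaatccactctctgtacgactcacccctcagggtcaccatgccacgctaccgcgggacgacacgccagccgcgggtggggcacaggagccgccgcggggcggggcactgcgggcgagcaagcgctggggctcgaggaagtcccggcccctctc
Rgs3, chr4:62559597-62559846, plus strand: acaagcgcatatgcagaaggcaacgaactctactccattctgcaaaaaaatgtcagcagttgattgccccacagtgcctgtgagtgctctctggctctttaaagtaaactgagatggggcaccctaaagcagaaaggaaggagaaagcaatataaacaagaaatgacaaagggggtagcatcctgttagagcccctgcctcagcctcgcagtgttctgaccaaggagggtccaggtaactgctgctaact
Gnaq, chr19:16132434-16132683, plus strand: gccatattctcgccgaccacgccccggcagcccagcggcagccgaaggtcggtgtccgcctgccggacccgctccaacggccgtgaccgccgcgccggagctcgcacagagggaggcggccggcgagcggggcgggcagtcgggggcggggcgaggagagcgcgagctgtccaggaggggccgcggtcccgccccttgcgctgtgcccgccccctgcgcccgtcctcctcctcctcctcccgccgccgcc
Rgs2, chr1:144004150-144004399, minus strand: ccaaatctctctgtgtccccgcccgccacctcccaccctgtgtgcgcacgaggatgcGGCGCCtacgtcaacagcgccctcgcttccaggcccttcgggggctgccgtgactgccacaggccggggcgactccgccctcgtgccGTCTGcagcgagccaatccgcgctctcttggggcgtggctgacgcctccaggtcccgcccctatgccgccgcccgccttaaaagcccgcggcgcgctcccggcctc
Only the Rgs2 window held a match, 1 of CAGAC (read as GTCTG on this strand) and 1 of GGCGCC, which do not overlap. Another window of Rgs19 held 1 GGCGCC, and the second window of Rgs3 held 1 CAGAC and 1 GGCGCC. GC content was 64.8% for Rgs19, 48.4% for Rgs3, 79.2% for Gnaq and 72.4% for Rgs2, and the median over all windows was 52.4%.

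**Figure D4:**
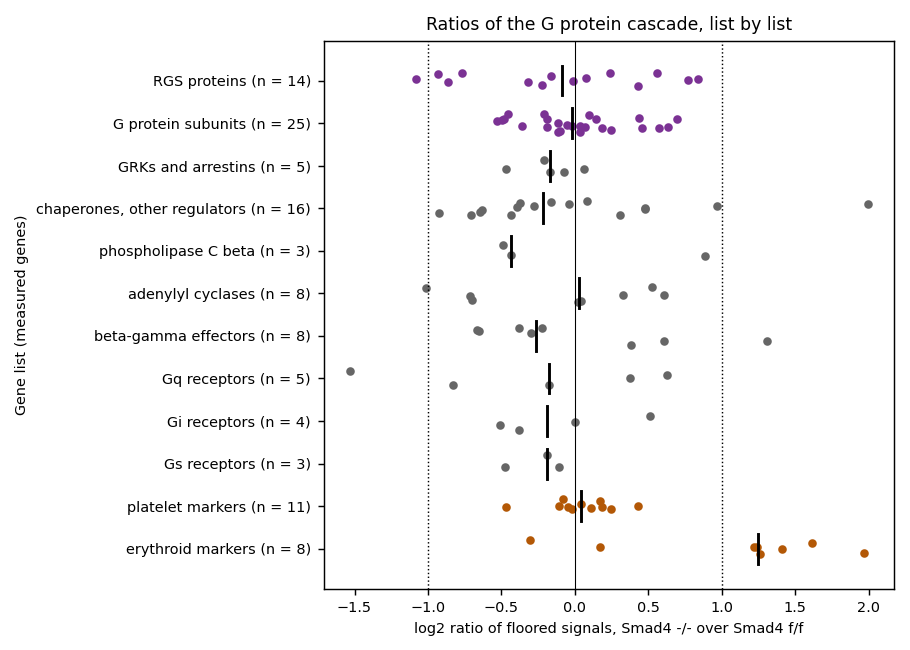
log2 ratios of measured genes in each list of the G protein cascade, with the RGS and subunit genes at the top (purple), the other lists of the cascade below (grey) and the platelet and erythroid markers at the bottom (orange); black bars are medians and dotted lines mark 2-fold. Of the 52 genes in the grey lists 19 lie above 0 and 33 below, while 6 of the 8 erythroid markers lie past the upper line.

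Genes that work on either side of the G proteins were read from lists of receptors, effectors and other regulators. Among 52 measured genes 2 passed 2-fold upwards and 2 downwards (7.69%, against 7.00% of all measured genes), with a median log2 ratio of -0.18. Of the 52 ratios 19 were above 0 and 33 below, against 5356 and 5733 over all measured genes, whose median was -0.02. Among receptors, Tbxa2r, the thromboxane receptor that acts through Gq, alone of 12 measured genes passed 2-fold and was at least 2.90-fold lower (421 against 102). In the same Gq list F2r (3317 against 5111, log2 ratio 0.62) and F2rl2 (2836 against 3683, 0.38) were higher, each by every measured probe set. The Gi-coupled ADP receptor gene P2ry12 read 130063 and 99673 (log2 ratio -0.38) and Ptger3, a prostaglandin E receptor, 1915 and 1343 (-0.51). S1pr1, also of the Gi list, was higher (156 against 222, 0.51). The prostacyclin receptor gene Ptgir read 6515 and 6038 (-0.11), and Ptger4 lay below the floor in Smad4 -/- (202 against 126). Ratios above and below 0 numbered 2 and 3 in the Gq list, 1 and 3 in the Gi list and 0 and 3 in the Gs list.

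Effectors went both ways. Adcy3, 1 of 8 measured adenylyl cyclase genes, was 2.02-fold lower (550.1 against 273) by the probe set used, but 2 of its 3 measured probe sets were higher and their mean was -0.10. Pik3r5, a regulatory subunit of the PI3 kinase that beta-gamma pairs activate, was 2.48-fold higher (155 against 385) by its only probe set, and 6 of the other 7 measured beta-gamma effectors stayed within 2-fold. The last, the potassium channel gene Kcnj3, was at least 1.59-fold lower (230.2 against 70.2, below the floor in Smad4 -/-). No phospholipase C beta gene passed 2-fold, with Plcb1 at 6339.7 and 4520.5 (-0.49) and Plcb4 at 889 and 1645 (0.89). Of their measured probe sets, 3 of 4 were lower for Plcb1 (mean -0.35) and 2 of 3 higher for Plcb4 (mean 0.43).

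Receptor kinases and arrestins, which silence active receptors, stayed within 2-fold in all 5 measured genes. Grk5 read 24950 and 23682 (log2 ratio -0.08) and Arrb2 12014 and 10686 (-0.17). Of 16 measured chaperones and other regulators, Gprasp1, which sorts receptors after uptake, was 3.99-fold higher (294 against 1175), with its other measured probe set on the other side of 0 and a mean of 0.64. Gnao1 lay below the floor on both arrays.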

How the data were processed

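The authors deposited log2 signals of 2 arrays, 1 per genotype. Per the submitters' processing notes they came from MAS5 (version not named), which condenses each set's probes into one signal and brings arrays to a common level. The log2 scale was inferred: with 2% of values trimmed from either end, the linear signals of both arrays average 500.01. Of 45101 probe sets, 64 are controls, and 34945 have 1 gene symbol in the platform annotation, 932 several and 9160 none. Of the 34945, 34741 matched RefSeq (GRCm38.p6) by Entrez ID, and no symbol changed. The steps were run in Python 3.11.15 with numpy 2.4.6, pandas 2.3.3 and statsmodels 0.14.6, and tested on simulated data. That test planted large differences in strong genes with little noise, so it checks neither weak signals nor small differences.

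Signals were raised to the 60th percentile (log2 7.18), the higher of both arrays. The probe set with the highest mean signal stood for the gene, a set named _x_at only if it was the gene's sole choice. With 1 array per genotype there is no test, and 2-fold is only a rule of size. Their number limits the precision. All measured genes were named, those of other lists where past 2-fold (up to 4 per list), or else the strongest 2. F2r, F2rl2, S1pr1 and Kcnj3 were named besides. The members and lists were chosen with earlier results of these data known. A list of effector genes fixed with the others is not reported here and enters no count of the lists. Promoters come from RefSeq. Alternatives were median centring, quantile normalisation, loess, other floors or none, a pseudocount of 50, mean probe sets, other thresholds and agreement in sign. A further one left out probe sets named _s_at, _x_at or _a_at where the gene has another. They are called shared here by their names alone.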

Additional observations from a re-analysis of the deposited data

How the results depend on the processing

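With 1 array per genotype no replicate could be left out, and signal near the floor limits the weak genes. No paired analysis was possible because each genotype has 1 array. Of the values of the 39 genes under 9 alternatives, 321 stayed within the probe set SD of the reported ratio and 17 did not, and 34 genes kept 1 sign in every setting that measured them. Gna13, Gnai2, Gnai3, Gnb1 and Gng12 did not. Another floor, no floor and the pseudocount cannot turn the sign of a probe set's ratio, so they are no check of it. The mean of probe sets could alter only the 18 genes with 2 or more measured probe sets. How many of all measured genes kept 1 sign was not computed. Leaving out shared probe sets gave another probe set to 5 genes only (Gna13, Gnas, Gnb1, Gng4, Rgs12). It could not alter 6 genes that have no other (Gna15, Gnai2, Gnb5, Rgs3, Rgs14, Rgs19) or genes already read by an unshared one. The genes past 2-fold were 0 higher and 0 lower with median centring, with the mean of probe sets, with the 3-fold threshold and where probe sets had to agree. They were 2 higher (Rgs1, Rgs8) and 2 lower (Rgs12, Rgs19) of 46 measured once the floor was lowered to the 50th percentile. Of 39 genes they were 3 and 5 with no floor, and 0 and 2 (Gnb3, Rgs20) with the pseudocount of 50. They were 4 and 4 with the 1.5-fold threshold, which 25.1% of all genes passed. Genes whose probe sets share a sign were 5 once the floor was raised to the 75th. Over all genes the lower floor (50th percentile) gave 671 higher and 762 lower of 13146 measured, the upper floor (75th) 175 and 140 of 7165. Counts of 11089 genes were 1130 and 1301 with no floor, 803 and 949 with the pseudocount, 1308 and 1480 at 1.5-fold, and 57 and 46 at 3-fold. They were 329 and 325 where probe sets had to agree, and 287 and 298 of 11380 with the mean of probe sets. The reported split of 379 higher and 397 lower became 479 and 315 with median centring. The cause of these changes was not tested, beyond the fewer or more genes that each floor and threshold lets in.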

Other observations

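Several of these genes lie next to each other in the genome. In the RefSeq gene order, 9 pairs of neighbouring protein-coding genes are both of this group, with 17 genes in all. In 6 of the 9 pairs only 1 gene was measured in platelets (66.7%), against 42.1% of all 14183 neighbouring pairs on the array. Since 1 gene can stand in 2 of the 9 pairs, these are not independent. Gng11 was measured and its neighbour Gngt1, a rod transducin subunit, was below the floor on both arrays. Gnai3 was measured beside Gnat2, the cone transducin alpha subunit, which was not. Likewise Rgs8 was measured beside Rgs16, Rgs4 beside Rgs5, and Rgs1 and Rgs2 on either side of Rgs13. Rgs8 and Rgs1 reached the floor in Smad4 -/- only, so their pairs count through that array alone. The share of 66.7% also rests on the floor used. With the floor lowered to the median signal (log2 6.70 in Smad4 f/f), the unmeasured neighbours other than Rgs13 were measured too. Gngt1 lay at 6.85, Gnat2 at 6.71 and Rgs16 at 6.82 in Smad4 f/f, and Rgs5 at 7.01 in Smad4 -/-. Their pairs then had both genes measured, and the share of all pairs with that floor was not computed. Both genes were measured for Gnaq with Gna14, Gna11 with Gna15 and Gna13 with Rgs9, although Gna14 reached the floor in Smad4 f/f only and Gna15 in Smad4 -/- only.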
